A study of Mus musculus with 26 samples.

Results

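The MHC class I pathway was examined in adipocytes and stromal vascular cells (SVCs) of mouse visceral fat through 10 genes: the heavy chains H2-K1 and H2-D1, their light chain B2m, the peptide transporter subunits Tap1 and Tap2, the loading factor Tapbp, the immunoproteasome subunits Psmb8, Psmb9 and Psmb10, and the transcriptional coactivator Nlrc5. The genes were picked by name, as the rows whose symbol equals one of these 10. All 10 were found once in each of the adipocyte and SVC tables, among 39017 rows per table, and all 10 passed the filter on low counts in every fit. No expression value entered this choice of rows, but the list was drawn up with earlier results from these data known.

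MHC class I molecules display peptides from a cell's own proteins to CD8 T cells. The proteasome cuts proteins into peptides, and in cells exposed to interferon the inducible subunits Psmb8, Psmb9 and Psmb10 replace the constitutive catalytic subunits Psmb5, Psmb6 and Psmb7. The transporter made of Tap1 and Tap2 carries the peptides into the endoplasmic reticulum, where Tapbp (tapasin) bridges it to empty class I molecules, and Nlrc5 with the regulatory factor X complex drives transcription of many of these genes. Nearly all nucleated cells make class I molecules, so neither fraction of fat is a negative control.

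The animals were wild-type C57BL/6J males. From an age of 9 to 10 weeks they ate food with 10% fat for 12 weeks (LFD, lean), food with 60% fat for 12 weeks (HFD, obese), or the 60% food for 9 weeks and then the 10% food for 3 weeks (SW, formerly obese). No transgene or other agent was used. After collagenase treatment of epididymal fat, adipocytes float and SVCs form a pellet, in which red blood cells were lysed. PolyA RNA was sequenced, and the values are estimated counts per gene. Adipocytes gave 3 libraries per diet, and for SVCs the library names gave 1 LFD, 2 HFD and 3 SW libraries. Whether the libraries of a group come from separate mice is not stated in the labels, so a p-value here measures the spread between these libraries.

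Totals ran from 5781902 counts in the LFD library of SVCs to 23725647 counts in an HFD library of adipocytes. The fractions were checked against marker lists. The 8 adipocyte markers summed to between 4256 and 12823 CPM, the count scaled to a fixed library size, in the adipocyte libraries and between 283 and 815 CPM in the SVC libraries. The 11 macrophage markers were also detected in all adipocyte groups, at 621 to 1003 CPM in LFD, 7292 to 8398 CPM in HFD and 5234 to 7683 CPM in SW libraries. The 2 HFD libraries of SVCs stood apart from each other: mitochondrial transcripts made up 6.34% of counts in library 212 and 33.5% in library 411, and hemoglobin transcripts 0.287% and 3.09%. Calls that were lost without either are given with the results. In such bulk libraries, fewer cells of a type and less RNA per cell cannot be told apart. CPM are scaled with TMM factors over all 15 libraries unless stated otherwise.

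**Figure D1:**
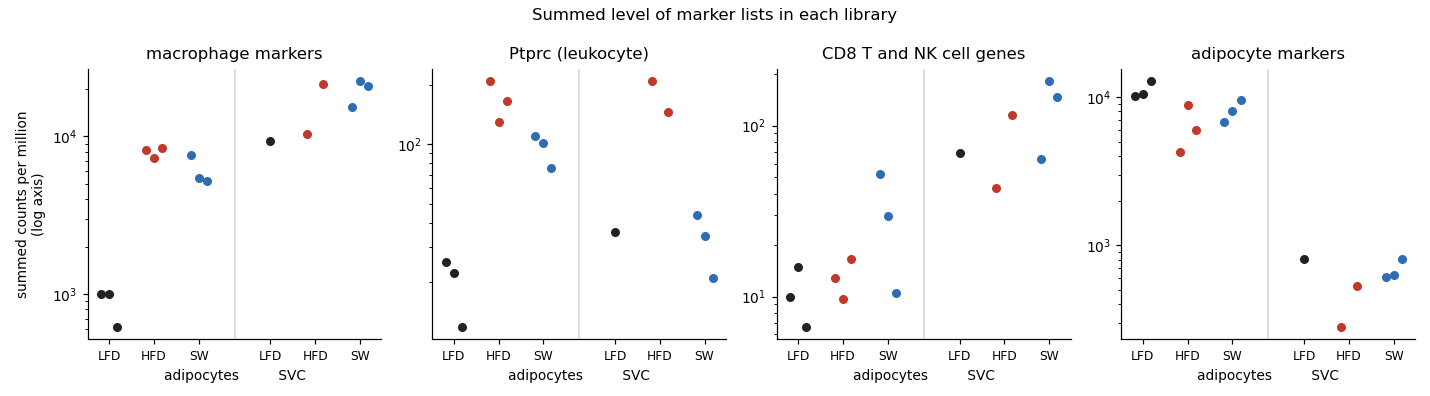
Summed level (CPM, log axis) of 11 macrophage markers, the leukocyte gene Ptprc, 13 T cell and natural killer cell genes and 8 adipocyte markers, 1 point per library, by diet (LFD black, HFD red, SW blue) and fraction. In adipocyte libraries the macrophage sum is at most 1003 CPM in LFD and at least 5234 CPM in HFD and SW, while the adipocyte sum is at least 4256 CPM.

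Of the 10 genes, 7 lie on chromosome 17 in the annotation used here (GENCODE M21, GRCm38). Tapbp (33915899 to 33929292, plus strand) and H2-K1 (33996017 to 34000347, minus strand) are followed by Psmb9 (34181987 to 34187764, minus), Tap1 (34187553 to 34197225, plus), Psmb8 (34197721 to 34201454, plus) and Tap2 (34203527 to 34216321, plus), and H2-D1 lies further along (35262730 to 35267499, plus). Nlrc5 and Psmb10 are on chromosome 8, and B2m is on chromosome 2. Tap1 and Psmb9 are neighbours read in opposite directions and overlap by 212 bases, and the sources used here do not state whether counting used strand, so reads from this overlap cannot be told apart. The 2 heavy chains belong to a family of near copies. Of all windows of 50 bases in the longest coding transcript, 14.3% in H2-D1 and 8.79% in H2-K1 also occur in transcripts of other genes. Their counts thus depend in part on how RSEM divided shared reads. No window of B2m, Psmb8, Psmb9, Psmb10 or Nlrc5 was shared in the same orientation, and the opposite orientation was not compared. The spans of B2m, Psmb8, Psmb10, Nlrc5, Tap2 and Tapbp also overlap genes on the opposite strand, such as Patl2 for B2m. Whether their exons overlap was not examined.

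Promoter windows, 250 bases before to 50 after the start in RefSeq (build GRCm38.p6), were listed for 8 of the 10 genes, H2-K1 with 2 overlapping windows. The class I promoters carry an enhancer with a kappaB site and an interferon response element, followed by a module whose X2 and Y boxes recruit CREB-family factors and NF-Y together with regulatory factor X and Nlrc5. Those of H2-K1 (chr17:34000298-34000597, minus strand), H2-D1 (chr17:35262844-35263143, plus strand) and B2m (chr2:122147437-122147736, plus strand) are shown because they hold this module; capitals mark, on either strand, matches to GGGATTCCC (kappaB), AANNGAAA (the core bound by interferon regulatory factors), and TGACG followed on the same strand by ATTGG after 10 to 30 bases (X2 and Y).
H2-K1: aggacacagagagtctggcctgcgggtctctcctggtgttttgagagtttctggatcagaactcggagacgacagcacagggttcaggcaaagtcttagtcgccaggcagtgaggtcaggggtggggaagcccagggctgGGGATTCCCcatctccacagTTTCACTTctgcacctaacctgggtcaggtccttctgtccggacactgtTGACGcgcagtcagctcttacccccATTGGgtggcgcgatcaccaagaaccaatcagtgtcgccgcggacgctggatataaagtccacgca
H2-D1: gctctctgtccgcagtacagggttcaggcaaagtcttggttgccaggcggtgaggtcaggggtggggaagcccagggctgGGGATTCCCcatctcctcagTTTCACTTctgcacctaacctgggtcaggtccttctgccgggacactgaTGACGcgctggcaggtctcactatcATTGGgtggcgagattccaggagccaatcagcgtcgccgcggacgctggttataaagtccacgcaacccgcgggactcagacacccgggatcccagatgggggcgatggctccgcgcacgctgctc
B2m: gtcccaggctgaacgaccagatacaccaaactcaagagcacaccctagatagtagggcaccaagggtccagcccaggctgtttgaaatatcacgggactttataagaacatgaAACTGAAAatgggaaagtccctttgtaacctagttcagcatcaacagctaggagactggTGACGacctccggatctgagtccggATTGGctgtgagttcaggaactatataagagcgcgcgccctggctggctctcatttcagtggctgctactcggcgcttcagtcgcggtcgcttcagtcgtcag
In all 3 genes the TGACG and ATTGG were 20 bases apart. This pair was found in 0.743% of 32851 mouse promoter windows of the same length and in none of the listed windows of Tapbp, Tap1, Psmb9, Psmb8 and Psmb10. The kappaB letters, found in 0.353% of all windows, were in H2-K1 and H2-D1 and not in B2m, and the AANNGAAA core, found in 23.9%, was in all 3. The spellings were chosen with these promoters known. A match in letters is a description and not a site.

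The windows of Tap1 (chr17:34187306-34187605, plus strand) and Psmb9 (chr17:34187281-34187580, minus strand) share 275 of 300 bases, so the pair is started from nearly the same stretch of DNA. That of Tap1 is shown with single matches to TGACG and to ATTGG (as its reverse complement) in capitals; neither the kappaB letters nor the AANNGAAA core was in it.
Tap1: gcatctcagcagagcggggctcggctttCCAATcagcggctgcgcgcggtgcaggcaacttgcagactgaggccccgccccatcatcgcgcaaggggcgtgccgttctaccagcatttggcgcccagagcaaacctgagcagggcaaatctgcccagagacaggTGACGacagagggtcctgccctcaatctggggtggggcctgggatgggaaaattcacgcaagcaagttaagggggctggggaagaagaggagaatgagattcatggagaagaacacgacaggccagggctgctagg
TGACG alone was in 20.8% and ATTGG alone in 37.4% of all windows.

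Per kilobase of the longest coding transcript, which allows levels of different genes to be compared, B2m was the most abundant member in adipocytes of LFD mice, at 2440 ± 165 CPM per kilobase (SD, n = 3). H2-K1 (876 ± 94.5) and H2-D1 (838 ± 62.9) followed, and their ranges overlapped. The processing genes were far lower. Tapbp stood at 107 ± 12.7 CPM per kilobase, and Psmb10 (67.9 ± 11.2), Psmb8 (52.5 ± 8.75), Psmb9 (38.3 ± 6.87) and Tap2 (32.0 ± 2.86) formed a series in which neighbours overlapped. Tap1 reached 15.5 ± 0.573 and Nlrc5 2.26 ± 0.151 CPM per kilobase, each below all libraries of the next higher gene. H2-K1 had the higher mean of the 2 heavy chains in adipocytes of LFD and SW mice and H2-D1 in adipocytes of HFD mice and in all SVC groups, and their ranges overlapped in each adipocyte group. In SVCs of SW mice H2-D1 stood at 1811 ± 385 and H2-K1 at 1180 ± 281 CPM per kilobase, again with overlap. Tap1 was above Tap2 in the same SVC libraries, at 58.4 ± 18.1 against 32.1 ± 3.53, and below it in adipocytes of every diet.

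**Figure D2:**
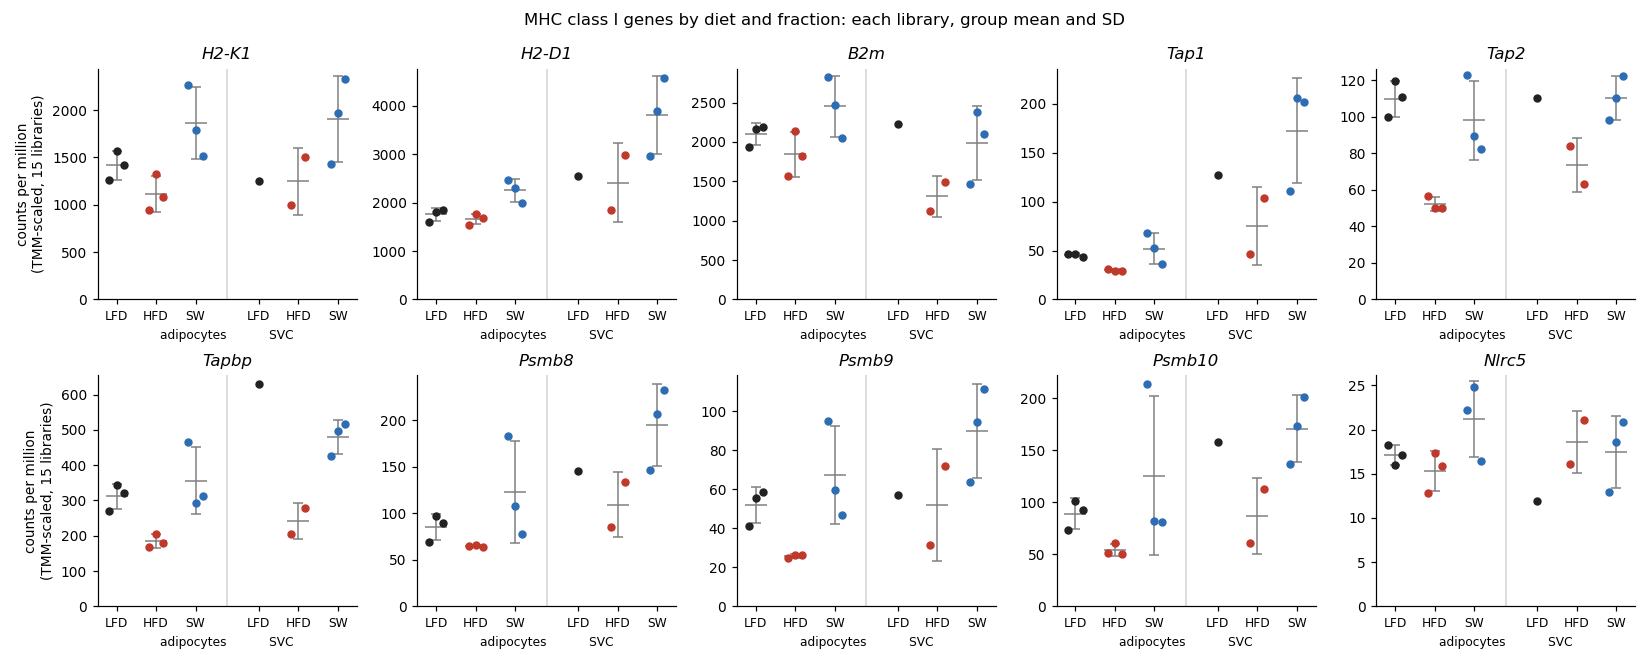
CPM of the 10 genes in each of the 15 libraries (points; LFD black, HFD red, SW blue), with group mean and SD as gray bars where a group has more than 1 library; the left 3 columns of a panel are adipocytes and the right 3 SVCs. For Tap1, Tap2, Tapbp, Psmb8, Psmb9 and Psmb10, all 3 HFD adipocyte libraries lie below all LFD and all SW adipocyte libraries.

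Obese and lean mice were compared through HFD against LFD adipocytes. The peptide transporter, tapasin and 1 immunoproteasome subunit were lower in obese mice: Tap2 and Psmb9 at 0.470-fold and 0.491-fold, Tapbp at 0.589-fold and Tap1 at 0.642-fold of the lean level. The heavy chains, B2m, Psmb8, Psmb10 and Nlrc5 did not pass the threshold, although all 10 estimates were below 0. Thus 4 of 10 members were lower and 0 higher, where 25.0% of the 14461 genes tested were lower and 26.5% were higher. The median log2 fold change was -0.53 over the members and -0.03 over all genes tested.

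Tap2 was measured at 99.8, 119 and 111 CPM in the LFD and at 56.8, 50.3 and 49.9 CPM in the HFD libraries. The groups were far apart, with the highest HFD library at 56.8 CPM (log2 fold change -1.09 ± 0.16, SE; adjusted p = 0.000398). Psmb9, the immunoproteasome subunit that takes the place of Psmb6, had 41.3, 55.5 and 58.7 CPM in LFD and 24.7, 26.5 and 26.2 CPM in HFD libraries. All HFD libraries lay within a narrow band below the lean ones (-1.03 ± 0.23; adjusted p = 0.00475). Tapbp had 271, 342 and 321 CPM in LFD and 169.5, 206 and 181 CPM in HFD libraries, again without overlap (-0.76 ± 0.19; adjusted p = 0.00794). Tap1 had 46.8, 46.7 and 43.8 CPM in LFD and 31.6, 29.0 and 28.8 CPM in HFD libraries. Its groups did not overlap and the log2 fold change was -0.64 ± 0.19 (adjusted p = 0.0186), but the adjusted p rose to between 0.0553 and 0.0679 when LFD library 405, HFD library 402 or HFD library 403 was left out.

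Neither the heavy chains, which bind and display the peptide, nor B2m passed the threshold. H2-D1 had 1610.4, 1815 and 1858 CPM in LFD and 1545, 1762 and 1683 CPM in HFD libraries, and the groups overlapped (log2 fold change -0.10, 95% interval -0.46 to 0.26; adjusted p = 0.630). B2m overlapped as well, with 1935, 2163 and 2196 CPM against 1563, 2139.9 and 1827 CPM (-0.21, interval -0.63 to 0.22; adjusted p = 0.388). H2-K1 had 1263, 1569 and 1423 CPM in LFD and 947, 1321 and 1080.1 CPM in HFD libraries. The highest HFD library of H2-K1 exceeded the lowest LFD library (-0.36, interval -0.82 to 0.09; adjusted p = 0.159). Whether the change of the loading genes differed from that of the heavy chains was not tested. As a ratio within each library, which needs no scaling, Tap2 counts were 0.0504 to 0.0552 of B2m counts in the LFD and 0.0235 to 0.0364 in the HFD libraries. The same ratio of Tap1 overlapped, at 0.01997 to 0.0242 in LFD and 0.0136 to 0.0202 in HFD libraries.

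Among the other immunoproteasome subunits, Psmb10 had 72.9, 102 and 92.6 CPM in LFD and 51.1, 60.6 and 50.1 CPM in HFD libraries. The groups did not overlap, but the adjusted p was 0.0885 (log2 fold change -0.74, interval -1.49 to 0.01), and it was 0.0496 with upper-quartile scaling and 0.00270 with only these 2 diets in the fit. Psmb8 had 69.7, 97.3 and 89.6 against 64.5, 66.4 and 64.0 CPM, also without overlap (-0.42, interval -1.0 to 0.17; adjusted p = 0.209, and 0.0220 with only these 2 diets in the fit). In all, 6 of 10 members had every HFD library below every LFD library, as did 30.5% of all genes tested. Nlrc5, at 18.3, 15.98 and 17.1 CPM in LFD and 12.8, 17.3 and 15.8 CPM in HFD libraries, overlapped between diets (adjusted p = 0.435).

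**Figure D3:**
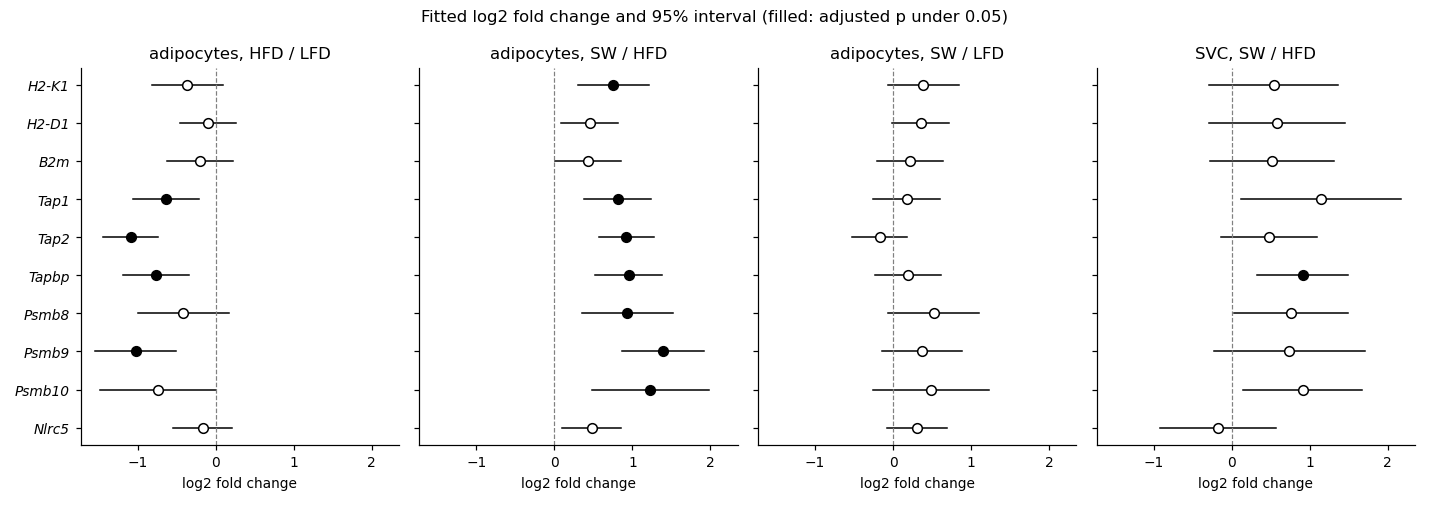
Fitted log2 fold change of each gene with its 95% interval in 4 comparisons; filled points have an adjusted p under 0.05 and the dashed line marks no change. In adipocytes 4 genes are filled on the left of 0 for HFD against LFD and 7 on the right for SW against HFD, none for SW against LFD, and in SVCs 1 for SW against HFD.

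After the switch to the low-fat diet most members were higher than in obese mice. Between SW and HFD adipocytes, 7 of 10 members were higher and 0 lower, where 15.6% of genes tested were higher and 15.9% lower. Psmb9 was at 2.63-fold and Psmb10 at 2.34-fold of the obese level, and Tapbp, Psmb8, Tap2, Tap1 and H2-K1 followed at 1.94, 1.91, 1.89, 1.75 and 1.68-fold. The median log2 fold change was 0.86 over the members and 0.01 over all genes. In 8 of 10 members every SW library was above every HFD library, as in 23.3% of all genes tested. This comparison shares its HFD libraries with the one before, so the 2 are not independent readings. Without HFD library 403 the number of members past the threshold fell to 3, and that of all genes from 4546 to 1522, and without HFD library 401 the numbers were 4 and 2299.

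Psmb9 had 95.3, 59.4 and 47.0 CPM in the SW libraries against at most 26.5 CPM in HFD (log2 fold change 1.39 ± 0.23; adjusted p = 0.00546). Tap2 had 123, 89.4 and 82.2 CPM in SW (0.92 ± 0.16; adjusted p = 0.00572), and Tapbp 465, 292 and 312 CPM (0.96 ± 0.19; adjusted p = 0.00856). All SW libraries of these 3 genes exceeded the HFD libraries, and Tap2, Tapbp and Psmb9 passed the threshold under each of the 14 alternatives, here and in the comparison of HFD with LFD. Tap1 had 67.4, 52.1 and 36.0 CPM in SW libraries (0.81 ± 0.19; adjusted p = 0.0138, and 0.0627 without HFD library 403). Psmb8 had 184, 108 and 78.2 CPM (0.93 ± 0.26; adjusted p = 0.0252). H2-K1 had 2269, 1793 and 1519 CPM (0.75 ± 0.20; adjusted p = 0.0224). Psmb8 and H2-K1 did not overlap with HFD, but lost the call when HFD library 401 (adjusted p = 0.0718 and 0.0805) or 403 (0.0869 and 0.0877) was left out, and Psmb8 also without HFD library 402 (0.0587).

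Psmb10 had 214, 82.0 and 80.7 CPM in SW libraries (1.23 ± 0.34; adjusted p = 0.0231). The SW group was uneven, with library 407 highest in 9 of the 10 genes and Nlrc5 the exception. This order rests in part on the TMM factors, which were 0.944 for library 407, 1.15 for 408 and 1.13 for 409. H2-D1 had 26384 of 11314661 counts in library 407 and 42907 of 16271834 in library 408, a larger part in library 408. Without library 407 the log2 fold change of Psmb10 was 0.60 (adjusted p = 0.0207) and that of Psmb8 0.53 (adjusted p = 0.0455), and all 7 members still passed the threshold. The call of Psmb10 was lost without HFD library 401 (adjusted p = 0.0755) or 403 (0.0847) and without the filter on low counts (0.0624). H2-D1 had 2471, 2302 and 1989 CPM in SW libraries, all above the HFD libraries, with an adjusted p of 0.0582 (0.45, interval 0.09 to 0.82) that was 0.0388 with upper-quartile scaling, 0.0446 with limma-voom and 0.00173 with DESeq2. B2m (2831, 2473 and 2049.9 CPM; 0.43, interval 0.0029 to 0.85; adjusted p = 0.110, and 0.0312 with DESeq2) and Nlrc5 (22.2, 24.8 and 16.4 CPM; 0.48, interval 0.10 to 0.85; adjusted p = 0.0548, and between 0.0201 and 0.0493 under 5 alternatives) overlapped with HFD in 1 SW library each.

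Formerly obese mice were also compared with lean mice. For SW against LFD adipocytes 0 of 10 members passed the threshold, where 10.9% of genes tested were higher and 6.18% lower (edgeR; also 0 members at an unadjusted p under 0.05, 1 by DESeq2 and 0 by limma-voom). The estimates were positive for all members but Tap2 (log2 fold change -0.17, interval -0.52 to 0.18), and the median was 0.33 over the members and 0.00 over all genes. The intervals do not exclude higher levels in SW mice: that of Psmb8 ran from -0.07 to 1.10 and that of H2-K1 from -0.07 to 0.84. Of the members, only H2-D1 had all SW libraries above all LFD libraries, and DESeq2 gave it an adjusted p of 0.0222. Psmb8 passed the threshold without SW library 409 (adjusted p = 0.0464).

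Other genes of the pathway were also compared between formerly obese and lean adipocytes, where 10.9% of all genes tested were higher and 6.18% lower. Past the threshold were 2 of 15 heavy chains, 2 of 10 partners in the endoplasmic reticulum, 1 of 17 constitutive proteasome genes and 5 of 23 regulators. Of 10 T cell and natural killer cell genes tested 0 passed, and Cd3g had the smallest adjusted p (log2 fold change 2.17, adjusted p = 0.0608). Of the heavy chains H2-M2 was higher (log2 fold change 3.605; adjusted p = 0.00328, on few counts in LFD libraries) and H2-Q10 lower (-1.07; adjusted p = 0.00568). Calr (0.67; adjusted p = 0.0329) and Sec61a1 of the translocon (0.41; adjusted p = 0.0481) were higher among the partners in the endoplasmic reticulum, and Psma5 (0.52; adjusted p = 0.0379) among the constitutive proteasome genes. Of the regulators, Irf8 (1.61; adjusted p = 0.000807), Ciita (1.48; adjusted p = 0.00308), Nfya (0.63; adjusted p = 0.0144) and the interferon receptor subunit Ifngr2 (0.59; adjusted p = 0.0213, named after its value was seen) were higher and Rfxap was lower (-0.60; adjusted p = 0.00605; likewise). Of these calls, that of Sec61a1 was lost under 9 of 14 alternatives (adjusted p up to 0.158) and that of Psma5 under 6 (up to 0.116). Calr lost its call without any of the LFD libraries or SW library 407 (up to 0.109), Ifngr2 without LFD library 404 or 406 (up to 0.0826), and Nfya without LFD library 405 (0.0639) or SW library 408 (0.0626).

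**Figure D4:**
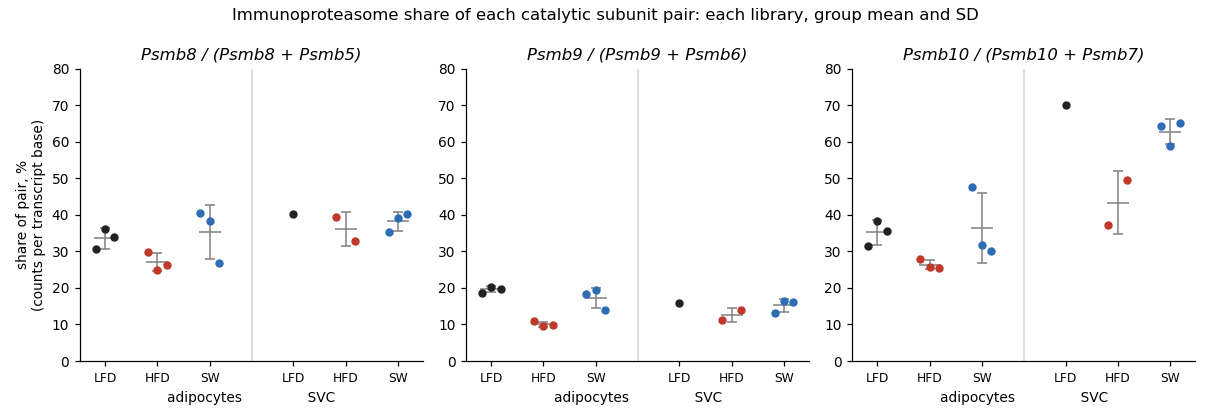
Share of the inducible subunit in each catalytic pair of the proteasome, in percent of the sum of both subunits' counts per transcript base, 1 point per library, with group mean and SD where a group has more than 1 library. All HFD adipocyte libraries are below all LFD adipocyte libraries in the 3 pairs, from 9.46% to 10.8% against 18.7% to 20.4% for Psmb9.

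The balance of inducible and constitutive proteasome was then read within each library, as the share of the inducible subunit in its pair, so that library scaling drops out. For Psmb9 with Psmb6, the share was 18.7%, 20.4% and 19.7% in LFD, 10.8%, 9.46% and 9.79% in HFD and 18.2%, 19.4% and 14.1% in SW adipocytes. HFD libraries were lower than both other diets without overlap, and the difference from LFD was -9.56 percentage points. For Psmb10 with Psmb7 it was 31.5%, 38.4% and 35.6% in LFD, 27.8%, 25.7% and 25.6% in HFD and 47.6%, 31.7% and 30.1% in SW, and for Psmb8 with Psmb5 it was 30.5%, 36.2% and 34.0%, then 29.9%, 25.0% and 26.4%, then 40.5%, 38.4% and 26.9%. HFD was below LFD in all 3 pairs without overlap, and SW above HFD without overlap in the pairs of Psmb9 and Psmb10. With 3 libraries against 3, an exact two-sided permutation test cannot go below p = 0.1, which these 5 comparisons reached (adjusted p = 0.18 over 9 comparisons), so no share passed the threshold. The constitutive subunits themselves did not pass the threshold in HFD against LFD adipocytes, with log2 fold changes of 0.05 for Psmb5, 0.12 for Psmb6 and -0.12 for Psmb7 (adjusted p = 0.809, 0.654 and 0.511). With upper-quartile scaling the value of Psmb5 was -0.043.

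In SVCs Psmb10 made up 70.0% of its pair in LFD, 37.2% and 49.4% in HFD libraries 212 and 411, and 65.2%, 64.3% and 58.9% in the SW libraries. Both HFD libraries were below the others, and no test of the share was made. The share depends on both subunits. In SVCs against adipocytes of SW mice Psmb7 was lower (log2 fold change -0.98, adjusted p = 0.000437), while Psmb10 did not pass the threshold (0.45, adjusted p = 0.261). The LFD library of SVCs had 277 counts of Psmb7. The shares of Psmb9 (11.2% and 13.99% in HFD, 13.1% to 16.3% in SW) and of Psmb8 (39.5% and 32.9% in HFD, 35.2% to 40.2% in SW) overlapped between HFD and SW.

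Other genes of the pathway were taken from lists of named genes. Of all genes tested in adipocytes, 26.5% were higher and 25.0% lower in HFD against LFD, and 15.6% and 15.9% in SW against HFD. These shares are the background for the lists below. Of the other class I and class I-like heavy chains, 15 of the 20 found passed the filter on low counts in adipocytes, and 9 were lower and 1 higher in HFD than in LFD mice (median log2 fold change -0.69). H2-Q10, a secreted class I molecule, had 27.9, 24.6 and 34.1 CPM in LFD and 6.64, 10.9 and 8.85 CPM in HFD libraries (-1.71 ± 0.21; adjusted p = 0.000131), and H2-M9 was also lower (-2.30; adjusted p = 0.00191, at no more than 3.36 CPM). The 1 gene that was higher, H2-M2, rests on 3, 2 and 0 counts in the LFD libraries against 27, 57 and 42 in the HFD libraries (adjusted p = 0.000892). In SW against HFD, 8 of the 15 were higher and 0 lower (median 0.64), led by H2-Q7, H2-Q6 and H2-T10 with log2 fold changes of 1.13, 1.12 and 0.98 (adjusted p = 0.00869, 0.00691 and 0.00970). H2-Q6 had 119, 122 and 128 CPM in LFD, 47.9, 51.8 and 49.9 CPM in HFD and 109.97, 141 and 70.2 CPM in SW libraries, with all HFD libraries below the others. H2-Q6 and H2-Q7 are near copies of each other, and their separate values are uncertain.

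The partners of class I in the endoplasmic reticulum were on the other side. Of 10 such genes, 7 were higher and 1 lower in HFD than in LFD adipocytes (median 0.61). Calr, the chaperone calreticulin of the loading complex, had 435, 394 and 379 CPM in LFD and 879.7, 763 and 756 CPM in HFD libraries (0.97 ± 0.19; adjusted p = 0.00187). Hspa5, a general chaperone, and Lnpep, an aminopeptidase of endosomes, were higher as well (0.74 and 2.22; adjusted p = 0.00672 and 0.000170). The 1 gene that was lower was Tapbpl, a relative of tapasin (-0.40; adjusted p = 0.00944; named after its value was seen). In SW against HFD, 2 were higher and 2 lower: Sec61b, a subunit of the protein translocon, was higher (0.67; adjusted p = 0.0325), as was Tapbpl (0.35; adjusted p = 0.0282), and Lnpep and the peptide-trimming Erap1 were lower (-1.66 and -0.49; adjusted p = 0.00479 and 0.0259). The SW against HFD calls of Sec61b and Tapbpl were lost without any of the HFD libraries, and that of Erap1 without HFD library 401 or 403, with adjusted p up to 0.106, 0.122 and 0.0846. That of Tapbpl in HFD against LFD was lost with no filter (0.0538).

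Of 17 genes of the constitutive proteasome core and its activators, 1 was higher and 4 were lower in HFD than in LFD adipocytes (median -0.12). The 4 are 23.5% of the list, where 25.0% of all genes tested were lower. In SW against HFD 8 were higher and 0 lower (median 0.51), where 15.6% of all genes tested were higher. The largest called change in both was that of Psme2, which with Psme1 forms the interferon-inducible activator PA28. Psme2 had 159, 226 and 219.6 CPM in LFD, 112, 152 and 127 CPM in HFD and 371, 223 and 214 CPM in SW libraries (-0.64, adjusted p = 0.0394, and 1.06, adjusted p = 0.0110). Psme1 rose in SW against HFD (1.03; adjusted p = 0.0121) and had a log2 fold change of -0.56 in HFD against LFD (adjusted p = 0.0649). Psmb3 and Psmb4, non-catalytic core subunits, were lower in HFD (-0.48 and -0.54; adjusted p = 0.0385 and 0.0370), and Psmb3 was higher in SW (0.80; adjusted p = 0.0104). Outside these named genes, and given after their values were seen, Psma3 was lower in HFD (-0.39; adjusted p = 0.0449) and Psme3, a nuclear activator subunit, was higher (0.33; adjusted p = 0.0184). All 5 calls in HFD against LFD depended on single libraries. Those of Psmb3, Psmb4, Psma3, Psme2 and Psme3 were lost without HFD library 403, LFD library 405 or LFD library 406, with adjusted p up to 0.124, 0.116, 0.162, 0.126 and 0.0713. In SW against HFD, Psme2 (adjusted p = 0.0510) and Psme1 (0.0525) lost the call without HFD library 403.

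**Figure D5:**
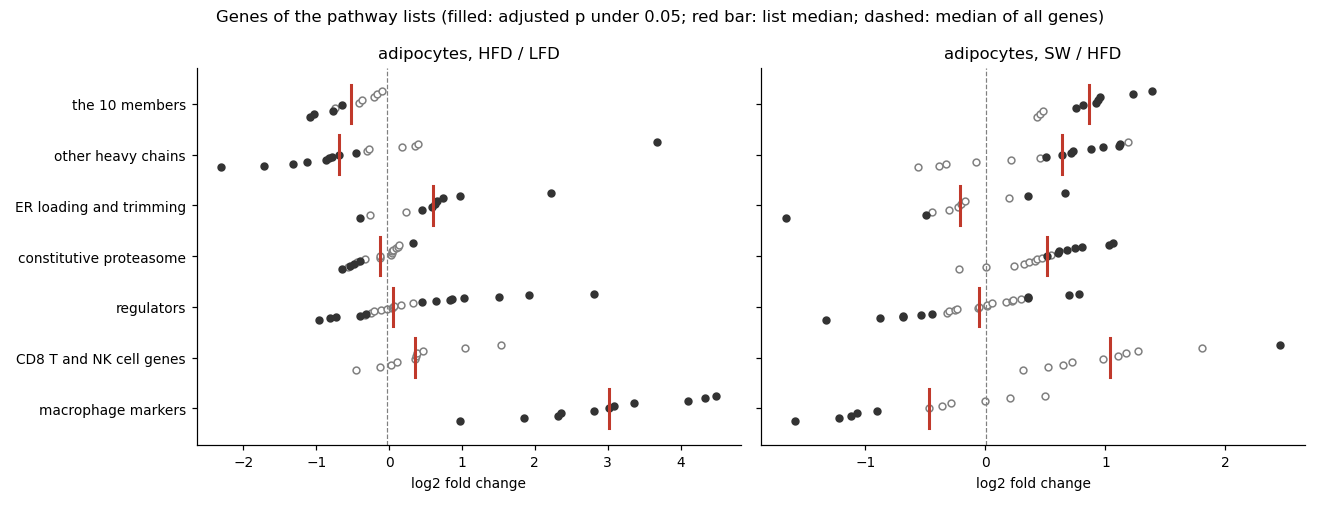
Log2 fold changes in adipocytes of the genes of 7 lists for HFD against LFD (left) and SW against HFD (right); filled points have an adjusted p under 0.05, red bars are list medians and the dashed line is the median of all genes tested. The members have medians of -0.53 and 0.86, and the macrophage markers of 3.02 and -0.47.

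Among 23 regulators of class I transcription, 8 were higher and 5 lower in HFD than in LFD adipocytes (median 0.06), so the list had no common direction. These are 34.8% and 21.7% of the list, where 26.5% and 25.0% of all genes tested were higher and lower. Ciita, the class II counterpart of Nlrc5, had 3.35, 2.53 and 1.54 CPM in LFD and 17.3, 15.1 and 20.3 CPM in HFD libraries, opposite in sign to the class I genes (2.81 ± 0.25; adjusted p = 2.16e-05). Irf8, which marks myeloid cells, and Nfya, a subunit of NF-Y, were also higher (1.92 and 1.504; adjusted p = 9.99e-05 and 3.48e-05). The 5 that were lower were Irf1, Irf7, Rfxap (-0.96; adjusted p = 0.000134), Rfxank (-0.40; adjusted p = 0.0401) and Rela (-0.31; adjusted p = 0.0367), of which Rfxap and Rfxank are subunits of regulatory factor X and all 5 are named after their values were seen. Irf1 had 73.3, 62.9 and 64.3 CPM in LFD, 45.4, 31.4 and 38.6 CPM in HFD and 74.8, 60.8 and 50.2 CPM in SW libraries (-0.81 in HFD against LFD, adjusted p = 0.00387, and 0.70 in SW against HFD, adjusted p = 0.0174). Irf7 had log2 fold changes of -0.72 (adjusted p = 0.0113) and 0.78 (adjusted p = 0.0163) in the same comparisons. In SW against HFD, 4 regulators were higher and 6 lower (median -0.06), Ciita (-1.33; adjusted p = 0.00513) and Nfya (-0.87; adjusted p = 0.00487) among the latter, and Irf1, Irf7, Rfxap (0.36; adjusted p = 0.0414) and Rela (0.36; adjusted p = 0.0348) were the higher ones. These 4 calls were lost without HFD library 403, with adjusted p = 0.0704 for Irf1, 0.0688 for Irf7, 0.196 for Rfxap and 0.106 for Rela. In HFD against LFD, those of Rfxank and Rela were lost without HFD library 401 or 403 or LFD library 405 or 406 (up to 0.134 and 0.144).

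Markers of other cells moved with diet in the same adipocyte libraries. All 11 macrophage markers were higher in HFD than in LFD mice (median log2 fold change 3.02), as was the pan-leukocyte gene Ptprc (25.2, 22.01 and 11.8 CPM in LFD and 211, 129.6 and 167 CPM in HFD libraries; 3.08, adjusted p = 3.40e-05). Between these 2 diets Tap1, Tap2, Tapbp and Psmb9 were lower in the libraries with the higher macrophage sum. In SW libraries this sum was 5234 to 7683 CPM, against 621 to 1003 CPM in LFD, while 0 of 10 members passed the threshold between SW and LFD. Among the SW libraries, 407 had the highest macrophage sum and also the highest Tap1, Tap2, Tapbp and Psmb9. In SW against HFD, 5 of the 11 macrophage markers and Ptprc (-0.80; adjusted p = 0.0451) were lower and 0 higher, and the call of Ptprc was lost without HFD library 401 (adjusted p = 0.139), HFD library 403 (0.0991) or any of the SW libraries (0.0548 to 0.129). Of the adipocyte markers 5 of 8 were lower in HFD than in LFD, and 2 were higher in SW than in HFD, the direction of the members. The adipocyte sum ran from 10164 to 12823 CPM in LFD, from 4256 to 8857 CPM in HFD and from 6804 to 9529 CPM in SW libraries. The HFD libraries thus lay below the LFD libraries in this sum without overlap, and SW overlapped with HFD. Of 13 genes of T cells and natural killer cells, which include the cells that read class I molecules, 10 could be tested in adipocytes and 0 passed the threshold in HFD against LFD. The smallest adjusted p was that of the natural killer receptor gene Ncr1 (1.05; adjusted p = 0.124). Their summed level ran from 6.65 to 14.8 CPM in LFD, from 9.64 to 16.7 CPM in HFD and from 10.5 to 51.9 CPM in SW libraries, where it was highest in library 407, and all 13 had counts in each group. Cd3d, a subunit of the T cell receptor complex, had 10.4, 3.06 and 1.03 CPM in SW libraries 407, 408 and 409 (2.46 in SW against HFD, adjusted p = 0.0313, and 0.127 without library 407). The part of these cells in the values of the members was not tested.

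Some other lists moved in the same direction as the members. In HFD against LFD adipocytes 3 of 5 endothelial, 3 of 4 mesothelial and all 4 red blood cell genes were lower and none higher, and 3 of 6 fibroblast and progenitor genes were higher. The endothelial sum ran from 977 to 1221 CPM in LFD, from 529.96 to 1004 CPM in HFD and from 482 to 653 CPM in SW libraries, so that it was not higher in SW than in HFD, and 0 of its 5 genes passed the threshold there. The red blood cell sum was 1861 to 2873 CPM in LFD, 552 to 674 CPM in HFD and 1169 to 1896 CPM in SW libraries, with all 4 genes higher in SW than in HFD. The mesothelial sum was 51.8 to 82.2, 8.99 to 22.9 and 16.7 to 27.1 CPM in the same order. Of the 4 B cell genes tested, 2 were higher and 0 lower in SW than in HFD (median 1.13) and 0 passed in HFD against LFD. Their sum ran from 5.30 to 15.7 CPM in LFD, from 6.11 to 8.93 CPM in HFD and from 9.25 to 23.1 CPM in SW libraries. Of 6 dendritic cell genes, 2 were lower and 1 higher in HFD than in LFD, and 1 was higher and 0 lower in SW than in HFD, with sums of 50.4 to 71.1, 200.1 to 314 and 171 to 231 CPM in the same order. All genes of the endothelial, red blood cell and mesothelial lists were detected in each group. The part of these lists in the values of the members was not tested.

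In SVCs the same diets could be compared less well. For SW against HFD, 1 of 10 members passed the threshold, where 5.71% of the 16319 genes tested were higher and 11.7% lower. Tapbp had 206 and 278 CPM in the HFD libraries 212 and 411 and 518, 426 and 497 CPM in the SW libraries 412, 413 and 414 (log2 fold change 0.91 ± 0.24; adjusted p = 0.04995). The call was lost without HFD library 212 (adjusted p = 0.109) or any of the SW libraries (0.0971 to 0.197), and with upper-quartile scaling, limma-voom or thinned counts. All members but Nlrc5 had positive estimates, with a median of 0.66 over the members and 0.03 over all genes. Tap1 had 46.7 and 104 CPM in HFD and 201, 111 and 206 CPM in SW libraries (1.14, interval 0.11 to 2.16; adjusted p = 0.0948). Psmb10 (0.91; adjusted p = 0.0812), Psmb8 (0.76; adjusted p = 0.107) and Tap2 (0.48; adjusted p = 0.194) had no overlap either, so that Tap1, Tap2, Tapbp, Psmb8 and Psmb10 lay higher in all 3 SW libraries. These are 5 of 10 members, where 28.5% of the genes tested lay higher without overlap.

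Among all genes tested in SVCs, 11.7% were lower and 5.71% higher in SW than in HFD mice. Whether the pathway lists differed from these shares was not tested. The other pathway genes past the threshold in SVCs were all lower in SW than in HFD mice, the more frequent direction among all genes. They were H2-Q10 (log2 fold change -3.27; adjusted p = 0.0476) of 14 heavy chains tested, Canx, Pdia3 and Erap1 (-1.69, -1.69 and -1.27) of 10 endoplasmic reticulum partners, Psma4, Psma1 and Psma3 (-1.34, -1.06 and -0.86) of 17 proteasome genes, and Jak2, Creb1 and Nfyb (-2.48, -1.88 and -1.82) of 23 regulators (adjusted p = 0.0362 to 0.0476). All 10 calls were lost when any single SW library was left out (adjusted p = 0.0541 to 0.164), and all but those of Psma4 and H2-Q10 without HFD library 212 (0.0640 to 0.153). Of the 13 T cell and natural killer cell genes 0 passed the threshold, and Prf1 had the smallest adjusted p (1.73, adjusted p = 0.150). H2-Q10 had 10.2 CPM in HFD library 212 and 114 CPM in library 411 against 5.21 to 7.94 CPM in SW libraries, and its adjusted p was 0.138 without library 411.

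The HFD libraries of SVCs were far apart for most members. In CPM, library 212 was the lower for 9 of the 10, with 31.4 against 72.1 CPM for Psmb9 and 1841 against 2987 CPM for H2-D1. Tap2 had its higher value in library 212, at 84.3 against 63.2 CPM. This order rests in part on the TMM factors, which were 1.24 for library 212 and 0.688 for library 411. H2-D1 had 29882 of 13106471 counts in library 212 and 36600 of 17818059 in library 411, a larger part in library 212. Without library 411, 4 members passed the threshold (Tapbp, Psmb10, Tap1 and Psmb9), and without library 212 there were 0. The count of all genes past the threshold moved from 2849 to 6213 and 503 under the same omissions, and it was 593 without SW library 414 and 0 without SW library 412 or 413. In these libraries Ptprc was at 211 CPM in library 212, 146 CPM in library 411 and 20.8 to 43.9 CPM in SW mice (-2.55; adjusted p = 0.0362; lost without HFD library 212, SW library 412 or SW library 413, at 0.0509, 0.155 and 0.0541), and 1 of 11 macrophage markers was lower in SW. The part of such differences in the values of the members was not tested.

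The LFD group of SVCs is 1 library, so its values stand without a test. Tapbp was at 631 CPM in it, above all HFD and SW libraries, and H2-K1 at 1254, H2-D1 at 2554, B2m at 2233 and Tap1 at 128 CPM lay within the range of the other SVC libraries. Nlrc5 was lowest in the LFD library, at 11.9 CPM. With scaling within the fraction, Tap1, Tap2, Tapbp, B2m, Psmb8 and Psmb10 were lower in both HFD libraries than in the LFD library, with log2 differences of -1.39 and -1.11 for Tapbp. Nlrc5 was higher in both, and H2-K1, H2-D1 and Psmb9 were higher in 1 and lower in the other. The share of all genes with such an order against this 1 library was not computed, so the order is not a result about the members.

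The 2 fractions were set side by side in 1 fit of all libraries. Most members did not pass the threshold between fractions. In HFD mice 2 of 10 members were higher in SVCs than in adipocytes and 0 lower, where 16.2% of the 17441 genes tested were higher and 12.9% lower. In SW mice 2 of 10 were higher and 0 lower, against 35.6% higher and 32.8% lower of all genes. The fractions carried their labels in the adipocyte markers, of which all 8 were lower in SVCs in both diets, but Ptprc, which should mark the leukocytes of SVCs, was lower in SVCs than in adipocytes of SW mice (-1.54; adjusted p = 0.000759), while 9 of 11 macrophage markers were higher. Tap1 was the member that differed in both, at 2.52-fold in HFD mice (log2 fold change 1.33 ± 0.33; adjusted p = 0.00969) and 3.33-fold in SW mice (1.73 ± 0.31; adjusted p = 0.000224). All SW libraries of SVCs exceeded all SW adipocyte libraries in Tap1. In HFD mice the call of Tap1 was lost without SVC library 411 (adjusted p = 0.217).

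Psmb9 was higher in SVCs of HFD mice (1.00 ± 0.35; adjusted p = 0.0443) but lost the call without SVC library 411 (adjusted p = 0.666), without any 1 of the HFD adipocyte libraries, and with limma-voom. H2-D1 was higher in SVCs of SW mice (0.76 ± 0.23; adjusted p = 0.0101, and 0.0911 without SVC library 412). Tapbp (0.43; adjusted p = 0.0757) and Psmb8 (0.67; adjusted p = 0.0514) did not pass in SW mice, but did so with RLE scaling, upper-quartile scaling and DESeq2. H2-K1 had intervals of -0.43 to 0.75 in HFD mice and -0.49 to 0.57 in SW mice, across 0, and its estimate in SW mice, 0.04, was -0.02 with at least 10 counts required in every library. B2m had estimates of -0.49 and -0.31 in HFD and SW mice and did not pass (adjusted p = 0.168 and 0.251). In count ratios within a library, H2-K1 was 0.613 to 0.918 of H2-D1 in the adipocyte libraries and 0.482 to 0.540 in the SVC libraries, so the ranges did not overlap between the fractions in any diet. No test was planned for this ratio, and shared reads of the 2 heavy chains limit it. Of the other class I and class I-like heavy chains, 5 of 15 were higher and 2 lower in SVCs of HFD mice, and 4 and 3 in SW mice. Cd1d1 had the largest called change in both, with log2 fold changes of -4.42 (adjusted p = 6.78e-06) and -5.68 (adjusted p = 8.73e-08).

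The difference of the diet change between the fractions was tested directly, as the SW against HFD change in SVCs minus that in adipocytes. None of the 10 members passed the threshold (edgeR; 0 also at an unadjusted p under 0.05 and by DESeq2 and limma-voom), where 11.4% of genes tested were higher and 15.7% lower. The intervals were wide, from -1.59 to 0.42 for Psmb9 and from -0.57 to 1.37 for Tap1, so differences of 1 on the log2 scale lay within them. Of the other class I and class I-like heavy chains 1 was higher and 3 lower in this difference, of the endoplasmic reticulum partners 2 and 2, of the proteasome genes 0 and 3, and of the regulators 1 and 4. Sec61a1 (1.02; adjusted p = 0.00558), Hfe (1.11; adjusted p = 0.0331), Rfxap (-0.84; adjusted p = 0.0417) and Creb1 (-1.43; adjusted p = 0.00654) are named from these counts after their values were seen. Without HFD library 212 of SVCs the calls of Hfe (adjusted p = 0.137) and Rfxap (0.263) were lost. The regulator that was higher was Ciita, with a difference of 2.03 (adjusted p = 0.0324): it fell in adipocytes from HFD to SW and had an estimate of 0.65 in SVCs (adjusted p = 0.436).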

How the data were processed

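Adipocyte and SVC libraries of epididymal fat were taken from 2 deposited tables of estimated counts per gene, 1 per fraction. Per the labels and methods, the authors sequenced polyA RNA, mapped reads to the mouse transcriptome with Bowtie2, and made the estimated counts with RSEM. The submitters' processing notes name mm9. Versions and the annotation release are not given in the sources used here. Some libraries were sequenced in single and paired-end runs, and how these were combined is not given. The labels name single runs for some LFD and HFD adipocyte libraries and for no SW adipocyte library. In SVCs every SW library has both run types, while some LFD and HFD libraries have only single or only paired-end runs. Run type is thus uneven over diets and fractions, and its part in the values was not tested. Groups came from the labels: 26 records name 18 libraries, of which 15 columns carried a name that fixed the diet, and 3 SVC columns were not used.

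Counts were rounded to whole numbers, filtered with filterByExpr (minimum count 10) and scaled with TMM factors. Separate fits per fraction used edgeR 4.0.16 (robust quasi-likelihood test; R 4.3.3), a joint fit covered both fractions, and all had Benjamini-Hochberg adjustment over all genes tested and a threshold of 0.05. Levels are CPM of the joint fit, divided by transcript length (GENCODE M21) where genes are compared. SVC LFD is 1 library and was not tested. Shares of inducible subunits were compared with an exact permutation test in scipy 1.17.1. The fit was also run on simulated counts with known changes, drawn with the same spread for all genes and the same base profile in every group. Such counts do not include a difference like that between the HFD libraries of SVCs, so they do not show how reliable the SVC calls are. Totals of 5781902 to 23725647 counts leave Nlrc5, the lowest member, with at least 55 counts in every library.

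The members and gene lists were chosen with earlier results of these data known. Besides the members, Psmb5, Psmb6, Psmb7, Ciita and Ptprc, genes of each pathway list were named by a rule. It took up to 3 genes per comparison with the largest called log2 fold change, or the 1 with the smallest adjusted p where none was called. Of the genes so taken between fractions within a diet, the text gives Cd1d1 only. Other genes are named as chosen after their values were seen. Alternatives were RLE and upper-quartile scaling, no filter or a minimum of 10 counts in every library, DESeq2 1.42.0, limma-voom (limma 3.58.1), thinned counts, a fit of only the groups compared, leaving out mitochondrial and hemoglobin genes, shares without division by length, and leaving out each library. Promoter sequences are from RefSeq (GRCm38.p6), and no coordinates were converted from the authors' build.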

Additional observations from a re-analysis of the deposited data

Results flagged for a closer look

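Of the genes named, 18 differed between fractions in their SW against HFD change (SVCs minus adipocytes, log2 scale). The test was edgeR's quasi-likelihood interaction test with Benjamini-Hochberg adjustment. All but Ciita and Ptprc were named here because they passed the threshold or after their values were seen, so their number is not a result. Of all 17441 genes tested, 11.4% were higher and 15.7% lower. None of the 10 members, which were named whatever their values, passed the threshold. Positive differences were found for Ciita (2.03), Calr (1.15), Sec61a1 (1.02) and Hfe (1.11). Negative ones were found for Ptprc (-1.61), for the class I and class I-like genes H2-Q10 (-3.86), Cd1d1 (-1.26) and H2-T10 (-1.16), for the chaperones Canx (-1.36) and Pdia3 (-1.32), and for the proteasome subunits Psma4 (-1.47), Psma3 (-1.38) and Psma1 (-0.95). Jak2 (-1.85), Nfyb (-1.63), Creb1 (-1.43), Rfxap (-0.84) and Ifng (-5.41) were also negative, the last with 4, 0 and 1 counts in the SW and 30 and 8 counts in the HFD libraries of SVCs. Each difference rests on the HFD libraries 212 and 411 of SVCs, which are unlike each other: H2-Q10 was at 114 CPM in library 411 and at 10.2 CPM in library 212. Without library 212 the calls of Ptprc (adjusted p = 0.0881), Cd1d1 (0.0557), Pdia3 (0.153), Jak2 (0.144), Ifng (0.135), Hfe (0.137) and Rfxap (0.263) were lost, and without library 411 that of Cd1d1 (0.0567). The calls of Ciita and Rfxap were lost under 8 and 11 of 19 alternatives in all (up to 0.0694 and 0.263), that of H2-Q10 with limma-voom (0.0640) and that of H2-T10 without SW library 408 of adipocytes (0.0529). Sec61a1, Hfe, Creb1 and Rfxap were named after their values were seen.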

How the results depend on the processing

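No paired analysis was possible because the library numbers in the tables are in no label. Over all alternatives, 236 counts and shares and 2591 single-gene values kept direction and side of the threshold, or, for counts, stayed within 1.5 times. Another 25 and 262 became weaker or fell below the threshold, 12 and 61 became stronger or passed it, and 3 and 42 turned sign. Where they did not, the cause was not tested. Members past the threshold numbered 1 in SW against LFD adipocytes with DESeq2. In SVCs of SW against HFD they numbered 3 with DESeq2 and 0 with upper-quartile factors, limma-voom or thinned counts, and all genes 5222 with DESeq2 and 1557 with limma-voom. Between fractions they numbered 4 (DESeq2) and 1 (limma-voom) in HFD mice and 4 in SW mice with RLE factors, upper-quartile factors or DESeq2. Leaving out each library gave 1522 to 4290 genes and 3 to 8 members for SW against HFD adipocytes, 0 to 1 members for SW against LFD, 0 to 6213 genes and 0 to 4 members in SVCs, 2528 to 7044 genes and 0 to 4 members between fractions in HFD mice, 1 to 5 members in SW mice, and 2936 to 6622 genes for the difference of changes. Shares in SW against LFD then ran from -0.892 to 5.87 points (Psmb8) and from -4.31 to 4.41 points (Psmb10). Upper-quartile factors moved the median of all genes from -0.0255 to -0.121 in HFD against LFD adipocytes and from 0.0774 to 0.176 between fractions in HFD mice, and turned Psmb5 (-0.043) in the former and, in the difference of changes, Psmb6 (-0.0036) and Tapbp (-0.0056). With 10 counts in every library, H2-K1 between fractions in SW mice (-0.016) and the differences of Psmb6 (-0.035) and Tapbp (-0.036) turned, and with limma-voom that of Psmb8 (0.012). Signs that turned when a library was left out belonged to log2 values that had not passed: Psmb5 in HFD against LFD (-0.022 to 0.142); Tapbp (-0.051 to 0.311), Psmb10 (-0.139 to 0.729) and Tap1 (-0.060 to 0.383) in SW against LFD, each without SW library 407; H2-K1 (-0.171 to 0.427), Psmb5 (-0.440 to 0.632) and Ptprc (-0.213 to 0.311) between fractions in HFD mice; H2-K1 (-0.236 to 0.108) and Tap2 (-0.015 to 0.257) in SW mice; and the differences of B2m (-0.028 to 0.307), H2-D1 (-0.089 to 0.512), H2-K1 (-0.390 to 0.107), Psmb5 (-0.114 to 0.857), Psmb6 (-0.306 to 0.423), Psmb8 (-0.379 to 0.254), Psmb9 (-1.07 to 0.0333), Psmb10 (-0.615 to 0.323), Tap1 (-0.064 to 0.987) and Tapbp (-0.153 to 0.222). Depth limits genes with few counts such as H2-M2 and Ifng; with thinned counts the SVC call of Tapbp was lost (adjusted p = 0.0530).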
